A study of Mus musculus with 24 samples.

Results

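miR-1, miR-133 and miR-206 are the microRNAs (miRNAs) of striated muscle, and their reads were followed in small RNA libraries made from mouse lung. The members are 5 mature miRNAs chosen by name (mmu-miR-1a-3p, mmu-miR-133a-3p, mmu-miR-133a-5p, mmu-miR-133b-3p and mmu-miR-206-3p, written without the species prefix from here on) out of 1950 mature miRNAs listed in the tables of 3 days. The libraries came from lungs of C57BL/6 mice, an inbred strain, aged 6 to 8 weeks when the groups were formed. The irradiated groups received 15 Gy of X-rays over the thorax, with the rest of the body spared, and were sampled at day 14, day 90 and day 180. Each day had its own group labelled Control. Each of the 6 groups holds 4 libraries, 24 in all. No label ties a library to an animal, so p-values measure the spread between libraries, which may be technical.

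miRNAs are short RNAs that pair with messenger RNAs through their seed, bases 2 to 8, and lower the output of those messengers. miR-1a and miR-133a are transcribed together from a pair of duplicated loci that are active in heart and in skeletal muscle. miR-206 and miR-133b are transcribed together from another locus, which is known for skeletal muscle. miR-1a-3p shares its seed with miR-206-3p, and miR-133a-3p with miR-133b-3p, so each seed family joins a miRNA of heart and skeletal muscle with a relative of skeletal muscle. The lung has little striated muscle of its own, but heart muscle sleeves run along the pulmonary veins of the mouse.

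The sequences of the skeletal muscle pair are shown because they carry the seeds of both families. They come from RefSeq on GRCm38.p6, with the seed in capitals, and the sequence table held 2 of the 5 members.
miR-206-3p: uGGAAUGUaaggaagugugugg
miR-133b-3p: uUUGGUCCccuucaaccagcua
Each is 22 bases long, and the seeds differ. The 1679 mature miRNAs of the table did not include miR-1a-3p or miR-133a-3p. Among them, the seed of miR-133b-3p was found in that miRNA alone, and the seed of miR-206-3p in miR-206-3p, miR-6349 and miR-6382. The hairpins that both are cut from follow, with the mature miRNA in capitals, to show that each lies in the 3′ arm.
Mir206: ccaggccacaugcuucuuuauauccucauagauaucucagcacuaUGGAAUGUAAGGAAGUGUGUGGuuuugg
Mir133b: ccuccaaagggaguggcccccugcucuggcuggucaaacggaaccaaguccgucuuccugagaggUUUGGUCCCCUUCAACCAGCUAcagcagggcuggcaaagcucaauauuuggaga
Mir206 lies at chr1:20679010-20679082 and Mir133b at chr1:20682769-20682887, both on the plus strand of GRCm38, with 3686 bases between them. Both lie inside the long non-coding RNA gene Gm28653, Mir133b in an exon and Mir206 outside the exons.

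The loci of miR-1a and miR-133a are on chromosomes 2 and 18. Mir1a-1 (chr2:180389048-180389124) and Mir133a-2 (chr2:180398379-180398482) lie on the plus strand with 9254 bases between them. Mir1a-2 (chr18:10785481-10785552) and Mir133a-1 (chr18:10782909-10782976) lie on the minus strand with 2504 bases between them, inside the non-coding gene Mir133a-1hg and opposite to the protein-coding gene Mib1. A read of mature miR-1a-3p or miR-133a-3p does not tell which copy it came from. miR-133a-3p and miR-133b-3p are near-identical, and no source used here states how reads were split between such relatives, so values of the lower of the pair, miR-133b-3p, are uncertain.

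The libraries held 2832205 to 3695133 counts. Levels are in CPM, the counts divided by a library size scaled by TMM within a day and set to a common total. Lung markers were high in every library: the summed miR-126a arms of endothelium lay at 35794 to 57787 CPM in irradiated and 37596 to 54178 CPM in control libraries, and the miR-200 family of epithelium at 30447 to 68709 CPM and 34572 to 44415 CPM. The 3 tables were not counted in one way. At days 14 and 90, 3 pairs of related miRNAs with at least 1000 counts, such as miR-199a-3p and miR-199b-3p, had identical counts in all libraries, and at day 180 there were 0 such pairs. Levels set across days therefore compare separate tables. Irradiated library 1 of day 180 stood apart: it had the lowest total count, miR-126a at 57787 CPM against 37536 to 43140 CPM in the rest of its group, and the miR-200 family at 68709 CPM against 30447 to 39203 CPM.

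In reads, miR-1a-3p was the most abundant member in all 24 libraries, with a median of 713 CPM (187 to 2905 CPM). miR-133a-3p had a median of 173 CPM (62.1 to 546 CPM), miR-206-3p of 14.0 CPM (1.80 to 639.8 CPM) and miR-133b-3p of 2.34 CPM (0.341 to 16.3 CPM). This order held in 19 libraries. In 4 libraries miR-133b-3p stood above miR-206-3p, and in control library 2 of day 14 miR-206-3p stood above miR-133a-3p. Mature miRNAs are of nearly the same length, but adaptor ligation favours some sequences, so the order describes reads. miR-133a-5p, the other arm of the miR-133a hairpin, was listed at day 90 alone, with 1 count in control library 4 and 0 in the other 7 libraries. A count of 0 allows up to 3 counts, which is 0.768 to 0.900 CPM in those libraries, and no fold is given. At days 14 and 180 it was not analysed here.

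**Figure D1:**
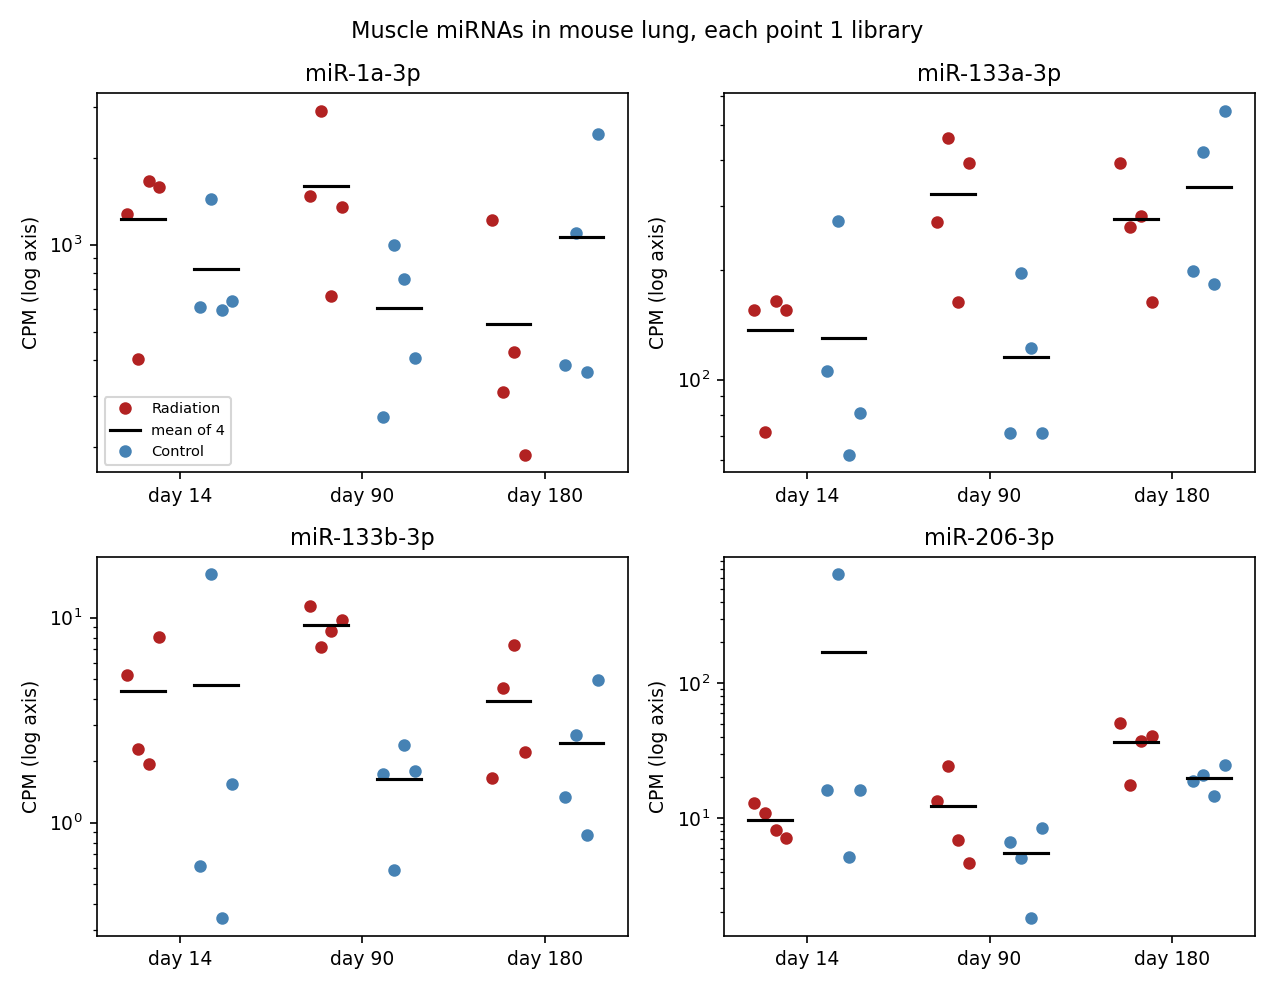
Level (CPM, log axis) of 4 muscle miRNAs in each of 24 libraries, by day, with irradiated libraries left of controls and a bar at the mean of 4. For miR-133b-3p at day 90 all 4 irradiated libraries (7.21 to 11.4 CPM) lie above all 4 controls (0.591 to 2.40 CPM), and for miR-206-3p at day 14 a control library lies at 639.8 CPM.

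The comparison of irradiated with control lungs asks which of these miRNAs changed after irradiation of the thorax. At day 90 all 4 members tested had log2 fold changes above 0. edgeR called miR-133b-3p, the skeletal muscle member of the miR-133 family, but that miRNA was tested only because it was high in the irradiated group, so its values are a description. The other 3 members did not pass. miR-133b-3p had 11.4, 7.21, 8.62 and 9.73 CPM in irradiated libraries 1 to 4, from 40, 25, 29 and 38 counts, against 1.74, 0.591, 2.40 and 1.80 CPM in control libraries 1 to 4, from 6, 2, 8 and 7 counts. The groups did not overlap. The log2 fold change was 2.48 ± 0.36 (SE, 4 libraries each), 5.56-fold, with an edgeR adjusted p of 0.0221.

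edgeR called 2 of the 558 miRNAs tested at day 90 (0.358%), and 1 of the 4 members tested. The groups did not overlap, with irradiated libraries higher, in 4.84% of all miRNAs tested and in the same 1 member. miR-133b-3p reached the filter's limit of 2.84 CPM in all 4 irradiated and in 0 control libraries, so a difference was built into its being tested, and neither the call nor the lack of overlap is support for a change. The call was lost without irradiated library 1, 2 or 3, or without control library 1 (edgeR adjusted p = 0.0986, 0.0525, 0.0908 and 0.111), at log2 fold changes of 2.34 to 2.54. It was also lost with the replicate number as a block (adjusted p = 0.0987) and in a fit of all 24 libraries (0.252). With the counts of miR-133a-3p and miR-133b-3p summed, the log2 fold change was 1.51 ± 0.40 (edgeR adjusted p = 0.155).

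miR-1a-3p, which restrains proliferation and promotes differentiation of muscle cells, had 1478, 2905, 666 and 1348 CPM in irradiated libraries at day 90, against 254, 996, 761 and 405 CPM in controls. Irradiated libraries 1, 2 and 4 stood above all controls, and library 3 below control libraries 2 and 3. Its log2 fold change was 1.40 ± 0.50 (edgeR adjusted p = 0.269). miR-133a-3p, which restrains smooth muscle genes in the heart, had 271, 461, 163 and 392 CPM in irradiated libraries, against 71.2, 195.6, 122 and 71.4 CPM in controls. Irradiated library 3 lay within the control range and the other 3 above it. On the log2 scale irradiated over control came to 1.48 ± 0.41 (edgeR adjusted p = 0.159). DESeq2 called it (adjusted p = 0.0108), as 1 of 18 called out of 558 miRNAs.

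miR-206-3p, which promotes differentiation of skeletal muscle and repair of its nerve contacts, had 13.4, 24.2, 6.84 and 4.61 CPM in irradiated libraries at day 90, against 6.66, 5.02, 1.80 and 8.47 CPM in controls. The groups overlapped. Its log2 fold change was 1.14 ± 0.56 (edgeR adjusted p = 0.444). In exact permutation tests of single members (two-sided), p was 0.0571 for miR-133a-3p, 0.0857 for miR-1a-3p and 0.229 for miR-206-3p, where 4 against 4 libraries allow no p below 0.0286. No such p is given for miR-133b-3p, since the filter had chosen it for high irradiated libraries. In whole lung RNA, more muscle cells and more miRNA per muscle cell cannot be told apart. The part of heart RNA in these levels was not tested either.

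At day 14 no member passed, and the log2 fold change of greatest size came from 1 control library. miR-206-3p had 12.8, 10.8, 8.10 and 7.14 CPM in irradiated libraries, against 16.1, 639.8, 5.12 and 16.0 CPM in controls. Control library 2 held 2159 counts of it, and the irradiated libraries 23 to 39. On the log2 scale irradiated over control came to -4.12 ± 1.48 (edgeR adjusted p = 0.804), and -0.34 ± 0.42 without that library (0.891). These fits left out that same-numbered libraries deviated together at day 14. With the replicate number as a block, edgeR also called 0 of 499 miRNAs, and the value of miR-206-3p lay nearer to 0, as given under the processing.

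Control library 2 of day 14 was also the highest control for miR-1a-3p, miR-133a-3p and miR-133b-3p. Its miR-205-5p and miR-203-3p, miRNAs of stratified epithelium, were at 731 and 3285 CPM, against 30.1 to 61.2 CPM and 514 to 712 CPM in the other controls. Summed, these 2 markers (2 of 2 listed, neither at 0 in any library) lay at 520.1 to 582 CPM in irradiated libraries and 552 to 4017 CPM in controls. At day 90 they lay at 313 to 847 CPM in irradiated libraries and 618 to 824 CPM in controls, and overlapped. At day 180 they lay at 582 to 790.4 CPM in irradiated libraries and 818 to 891 CPM in controls, without overlap and lower in irradiated libraries. Their part in the levels of the members was not tested.

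miR-1a-3p at day 14 had 1281, 402, 1655 and 1579 CPM in irradiated libraries, against 607, 1444, 595 and 637 CPM in controls. Irradiated library 2 was below all controls, and control library 2 above irradiated libraries 1 and 2. Irradiated over control, the log2 fold change was 0.58 ± 0.46 (edgeR adjusted p = 0.919), and 1.02 ± 0.44 without control library 2 (0.891). miR-133a-3p had 155, 71.9, 164 and 155 CPM in irradiated libraries, against 106, 273, 62.1 and 81.2 CPM in controls. The same 2 libraries, irradiated library 2 and control library 2, stood apart from their groups. The log2 fold change was 0.07 ± 0.48 (edgeR adjusted p = 0.978), and 0.73 ± 0.34 without control library 2 (0.891).

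miR-133b-3p at day 14 had 5.26, 2.29, 1.94 and 8.07 CPM in irradiated libraries, from 16, 7, 6 and 26 counts, against 0.618, 16.3, 0.341 and 1.54 CPM in controls, from 2, 55, 1 and 5 counts. It did not pass the filter on low counts. Apart from control library 2, each control lay below each irradiated library. edgeR called 0 of 499 miRNAs at day 14 (0%), with 27 at an unadjusted p under 0.05. DESeq2 called 1 and limma-voom 0, and neither called a member, but DESeq2 gave no p for miR-206-3p. The groups overlapped for each of the 4 members listed, while they did not in 2.4% of all miRNAs tested. Exact permutation p (two-sided) lay between 0.371 and 0.657 for the members, in tests that did not pair same-numbered libraries.

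At day 180 no member passed, and the members lay on both sides of 0. miR-206-3p had 50.8, 17.5, 37.4 and 40.3 CPM in irradiated libraries, against 18.9, 20.8, 14.6 and 24.8 CPM in controls. Irradiated libraries 1, 3 and 4 stood above all controls and library 2 among them. The log2 fold change was 0.88 ± 0.35 (edgeR adjusted p = 0.259), with an exact permutation p of 0.114. Irradiated library 1, which stood apart in lung markers, was the highest irradiated library for miR-206-3p, miR-1a-3p and miR-133a-3p, and without it the log2 fold change of miR-206-3p was 0.67 ± 0.32 (edgeR adjusted p = 0.225).

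miR-1a-3p at day 180 had 1213, 309, 424 and 187 CPM in irradiated libraries, against 384, 1099.9, 362 and 2420 CPM in controls. Irradiated library 1 and control libraries 2 and 4 stood above the rest. The log2 fold change was -1.0 ± 0.73 (edgeR adjusted p = 0.477), -1.81 ± 0.69 without irradiated library 1 (0.162) and -0.22 ± 0.68 without control library 4 (0.896). miR-133a-3p had 393, 262, 282 and 163 CPM in irradiated libraries, against 198, 422, 183 and 546 CPM in controls. The same libraries were the highest of their groups. Its log2 fold change was -0.29 ± 0.42 (edgeR adjusted p = 0.729), -0.53 ± 0.42 without irradiated library 1 (0.45) and 0.03 without control library 4.

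miR-133b-3p at day 180 had 1.65, 4.52, 7.34 and 2.21 CPM in irradiated libraries, from 4, 16, 29 and 8 counts, against 1.33, 2.67, 0.874 and 4.95 CPM in controls, from 5, 10, 3 and 16 counts, and did not pass the filter. edgeR called 0 of 552 miRNAs at day 180 (0%), with 101 at an unadjusted p under 0.05, DESeq2 called 29 and limma-voom 0, and none of these was a member. The groups overlapped for each member listed, while they did not in 12% of all miRNAs tested.

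The other miRNAs of striated muscle genes were set beside the members. Of 13, 8 were listed at day 14, 9 at day 90 and 9 at day 180, and 5 were tested on each day: miR-1b-5p, miR-208a-3p, miR-208a-5p, miR-208b-3p and miR-499-5p. At day 14, 4 of these 5 had a log2 fold change above 0 (51.9% of all miRNAs tested), with a median of 0.73 against 0.01 over all miRNAs tested. At day 90, 5 of 5 did (48% of all), with a median of 1.51 against -0.02. At day 180, 1 of 5 did (58.9% of all), with a median of -1.06 against 0.13. edgeR called none of the 5 on any day. At day 90 edgeR with no filter called 18 of 1707 miRNAs, with miR-208a-3p (adjusted p = 4.51e-05), miR-208a-5p (0.00343) and miR-1b-5p among them. DESeq2 called 18 of 558, with miR-499-5p (adjusted p = 0.00629) and miR-1b-5p among them. At days 14 and 90, miR-208a-3p and miR-208a-5p reached the filter's limit in 4 irradiated and 2 control libraries, so these counts and medians describe the list only.

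miR-499-5p, encoded in the myosin gene Myh7b, had all irradiated libraries above all controls at day 14 (27.5 to 54.1 CPM against 17.1 to 27.3 CPM) and at day 90 (48.2 to 70.7 CPM against 22.6 to 39.9 CPM). miR-208a-3p, encoded in the heart myosin gene Myh6, did so at day 90 (49.96 to 409 CPM against 0 to 35.5 CPM). miR-208b-3p, encoded in the slow myosin gene Myh7, had all irradiated libraries below all controls at day 180 (5.31 to 26.4 CPM against 27.9 to 34.2 CPM). Irradiated libraries stood above controls without overlap in 0.802% of all miRNAs tested at day 14 and 4.84% at day 90, and below them in 6.52% at day 180. These 3 miRNAs did not pass the filtered edgeR test on those days, while miR-499-5p and miR-208a-3p were called at day 90 by the alternatives named above.

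**Figure D2:**
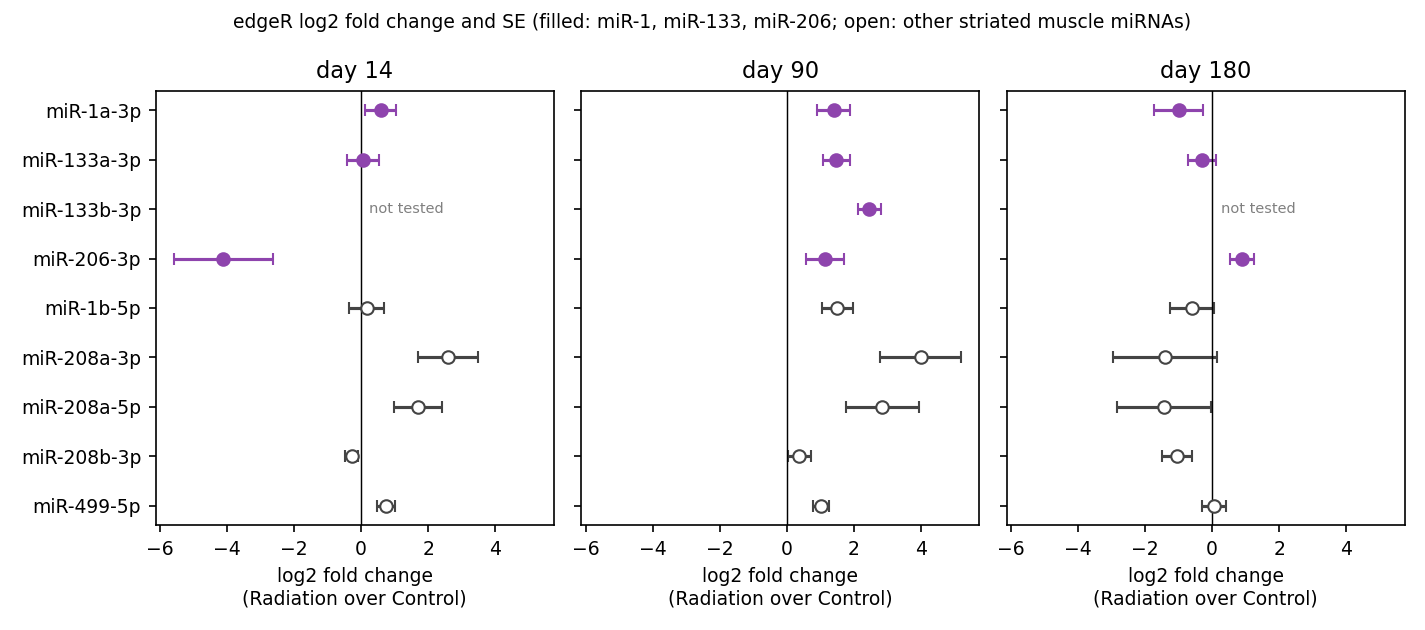
Log2 fold change of irradiated over control lungs with its SE (edgeR, 4 libraries per group) for miR-1, miR-133 and miR-206 (filled) and other striated muscle miRNAs (open), by day. All values tested at day 90 lie above 0, and miR-206-3p at day 14 lies at -4.12, which is -0.34 without control library 2.

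Whether the radiation effect itself differed between days was tested in 1 fit of all 24 libraries. edgeR called 0 of 624 miRNAs in each of the 3 contrasts (0%), with 28, 71 and 91 at an unadjusted p under 0.05 for day 90 minus 14, day 180 minus 14 and day 180 minus 90, and DESeq2 called 1, 3 and 3. The effect at day 180 minus that at day 90 was -2.42 ± 0.91 (log2) for miR-1a-3p and -1.80 ± 0.66 for miR-133a-3p, both with an edgeR adjusted p of 0.272. For miR-206-3p it was -0.27 ± 1.31 (0.946), and for miR-133b-3p -1.78 ± 1.14 (0.472).

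Against day 14, the effect on miR-206-3p differed by 5.23 ± 1.40 at day 90 (edgeR adjusted p = 0.394) and by 4.96 ± 1.36 at day 180 (0.207). DESeq2 called both differences (adjusted p = 0.0162 and 0.00963), and edgeR called the difference at day 180 without irradiated library 2 of day 180 (5.24, adjusted p = 0.0479). Without control library 2 of day 14, the edgeR differences were 1.55 ± 0.72 (0.999) and 1.33 ± 0.70 (0.488).

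Across libraries, miR-1a-3p and miR-133a-3p varied together with the heart miRNA miR-208a-3p. The measure was each library's deviation from its group mean in log2(CPM + 1), over 24 libraries, so that differences between groups do not enter. Pearson r was 0.896 and Spearman rho 0.913 for miR-1a-3p with miR-133a-3p (permutation p = 1e-05 for both, the smallest that the permutations can give, adjusted p = 7e-05). With miR-208a-3p, r was 0.923 and rho 0.914 for miR-1a-3p (permutation p = 3e-05 for both, adjusted p = 0.00014), and r was 0.898 and rho 0.905 for miR-133a-3p (permutation p = 1e-05 for both, adjusted p = 7e-05). The p-values were adjusted over the 14 relations computed, and the permutations did not keep same-numbered libraries of day 14 together. Without the 2 libraries farthest from the median on the first miRNA's axis, r was 0.901, 0.905 and 0.933.

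These relations were also high within single days of 8 libraries. For miR-1a-3p with miR-208a-3p, r was 0.899, 0.893 and 0.955 at days 14, 90 and 180 (exact permutation p = 0.0503, 0.0139 and 0.00347, unadjusted). For miR-133a-3p with miR-208a-3p, r was 0.902, 0.937 and 0.988 (exact permutation p = 0.0104, 0.00347 and 0.00347). The levels of miR-208a-3p that this rests on were near 0 in several libraries, with 0 counts in control library 4 of day 90 and in control library 1 of day 180.

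miR-206-3p did not pass with miR-208a-3p (r = 0.231, rho = 0.217, permutation p = 0.134 and 0.292, adjusted p = 0.141 and 0.292), although r was 0.283 with an adjusted p of 0.0396 when 10 CPM was added in place of 1. Nor did it pass with miR-1a-3p (r = 0.319, rho = 0.292, permutation p = 0.052 and 0.159, adjusted p = 0.091 and 0.22). With miR-133b-3p, its partner in the locus, r was 0.64 and rho 0.269 (permutation p = 0.141 and 0.242, adjusted p = 0.141 and 0.26). That r was 0.0326 without control libraries 2 and 3 of day 14, so it rested on those libraries. The counts of miR-133b-3p behind it were low in most libraries.

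With miR-205-5p of stratified epithelium, miR-206-3p had r = 0.833 and rho = 0.661 (permutation p = 0.0256 and 0.00588, adjusted p = 0.0597 and 0.0206). Without control libraries 2 and 3 of day 14, r was 0.485 and rho 0.58. Within days, r was 0.944, 0.882 and 0.0502 at days 14, 90 and 180 (exact permutation p = 0.116, 0.00868 and 0.95, unadjusted). Of these p only that of day 90 was under 0.05. At day 180 rho was 0.286 (exact permutation p = 0.63). miR-1a-3p had r = 0.435 and rho = 0.517 with miR-205-5p (permutation p = 0.00742 and 0.0157, adjusted p = 0.0255 and 0.0441), and miR-133a-3p had r = 0.607 and rho = 0.497 (permutation p = 0.00911 and 0.0271, adjusted p = 0.0255 and 0.0632). For miR-1a-3p, r within days 14, 90 and 180 was 0.634, 0.247 and 0.499 (exact permutation p = 0.0556, 0.665 and 0.227, unadjusted). For miR-133a-3p it was 0.892, 0.0289 and 0.479 (exact permutation p = 0.0174, 0.957 and 0.193). The differences between correlations were not tested.

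**Figure D3:**
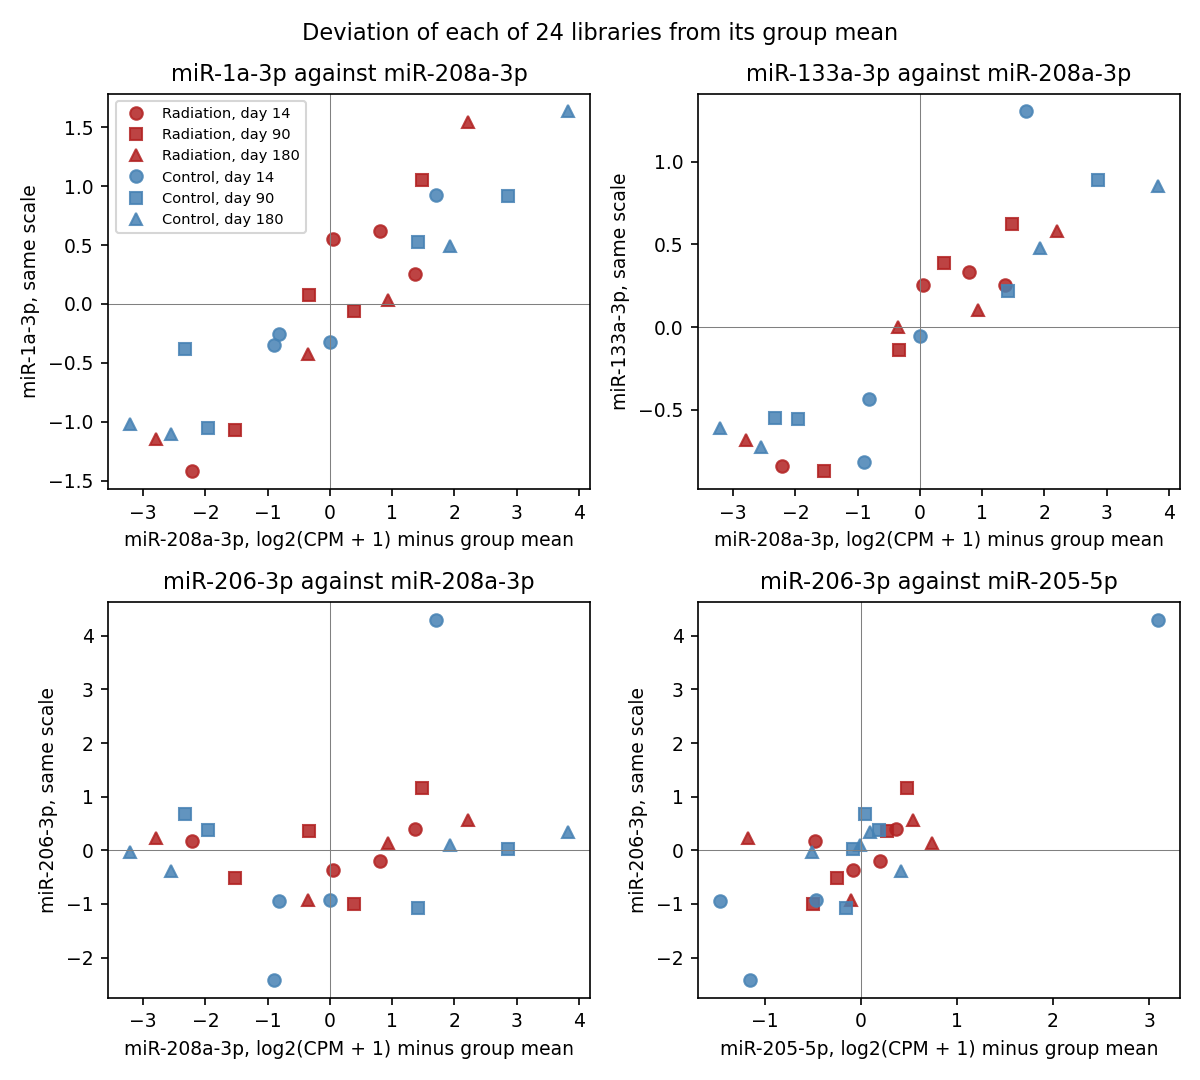
Deviation of each of 24 libraries from its group mean, in log2(CPM + 1), for miR-1a-3p, miR-133a-3p and miR-206-3p against miR-208a-3p, and for miR-206-3p against miR-205-5p, with colour for the group and shape for the day. The panels of miR-1a-3p and miR-133a-3p rise (r = 0.923 and 0.898), that of miR-206-3p against miR-208a-3p does so less (r = 0.231), and in the last panel the point farthest to the upper right is control library 2 of day 14.

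A ranking of 477 miRNAs by Spearman correlation of the same deviations, over 24 libraries that share depth and scaling, gave the nearest patterns as a description. For miR-1a-3p they were miR-1b-5p (rho 0.967), miR-208a-3p (0.914) and miR-208a-5p (0.893). For miR-133a-3p they were miR-208a-3p (0.905), miR-1b-5p (0.902) and miR-208a-5p (0.884). For miR-206-3p they were miR-378b (0.669), miR-205-5p (0.661) and a predicted, unannotated miRNA (0.589), with miR-208a-3p at rank 85.

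Shares of counts within a library set each skeletal muscle miRNA beside its seed relative of heart and skeletal muscle, with no scaling between libraries. Of the summed counts of miR-1a-3p and miR-206-3p, miR-206-3p made up 0.991%, 2.61%, 0.487% and 0.45% in irradiated libraries at day 14, against 2.58%, 30.7%, 0.853% and 2.45% in controls. The 30.7% of control library 2 had a Wilson 95% interval of 29.6% to 31.8%, which covers counting error only, as do all such intervals here. At day 90 the share was 0.896%, 0.827%, 1.02% and 0.341% in irradiated libraries, against 2.55%, 0.501%, 0.236% and 2.05% in controls. At day 180 it was 4.02%, 5.37%, 8.11% and 17.7% in irradiated libraries, against 4.68%, 1.86%, 3.87% and 1.01% in controls. Irradiated libraries 2, 3 and 4 of day 180 lay above all controls, and the groups overlapped on each day.

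Of the summed counts of miR-133a-3p and miR-133b-3p, miR-133b-3p made up 3.12% ± 1.55 in irradiated and 2.16% ± 2.40 in control libraries at day 14 (SD, 4 libraries each). At day 90 it was 3.25% ± 1.57 against 1.77% ± 1.00, and at day 180 1.50% ± 0.879 against 0.667% ± 0.175. The groups overlapped on each day, also at day 90, where the level of miR-133b-3p did not.

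A heart miRNA and a skeletal muscle miRNA were set against each other directly, as the log2 ratio of miR-208a-3p to miR-206-3p with 1 CPM added to each. At day 14 the ratio was 2.28, -1.08, 2.31 and 1.72 in irradiated libraries, against -1.77, -5.29, -1.18 and -2.58 in controls. At day 90 it was 3.03, 4.02, 2.70 and 5.11 in irradiated libraries, against -2.57, 2.60, 2.25 and -3.24 in controls. The groups did not overlap on these days, with the nearest libraries close to each other. miR-208a-3p had 5 to 52 counts in control libraries at day 14 and 0 to 120 at day 90, so the added 1 CPM weighs on several ratios. It reached the filter's limit in 4 irradiated and 2 control libraries on both days. The lack of overlap is therefore a description, and its share over other ratios was not computed. At day 180 it was -0.34, -1.42, -1.18 and -5.02 in irradiated libraries, against -4.31, 0.69, -3.30 and 2.35 in controls, and the groups overlapped.

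The summed heart list (miR-208a-3p, miR-208a-5p, miR-208b-3p and miR-499-5p, 4 of 4 listed) lay at 54.3 to 132.5 CPM in irradiated and 36.2 to 73.8 CPM in control libraries at day 14. The sum does not measure heart alone, since miR-208b-3p comes from the slow myosin gene Myh7 and miR-499-5p from Myh7b. The sum lay at 144 to 600.2 CPM against 37.3 to 118 CPM at day 90, without overlap, and at 41.2 to 124 CPM against 54.0 to 246 CPM at day 180. Its miRNAs differed at day 90. miR-208a-3p (means of 192 against 12.0 CPM) and miR-499-5p did not overlap between groups, while miR-208a-5p and miR-208b-3p (32.5 against 24.9 CPM) did. miR-208a-3p was tested through its irradiated libraries, and 4.84% of all miRNAs tested lay higher without overlap, so the sum is a description. miR-208a-3p and miR-208a-5p were at 0 in some libraries of days 90 and 180. Another tissue's markers also stood apart at day 90: the liver miR-122 arms (2 of 2 listed, never at 0) lay at 660.4 to 1069 CPM in irradiated and 166 to 473 CPM in control libraries. The part of heart or liver RNA in the levels of the members was not tested.

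**Figure D4:**
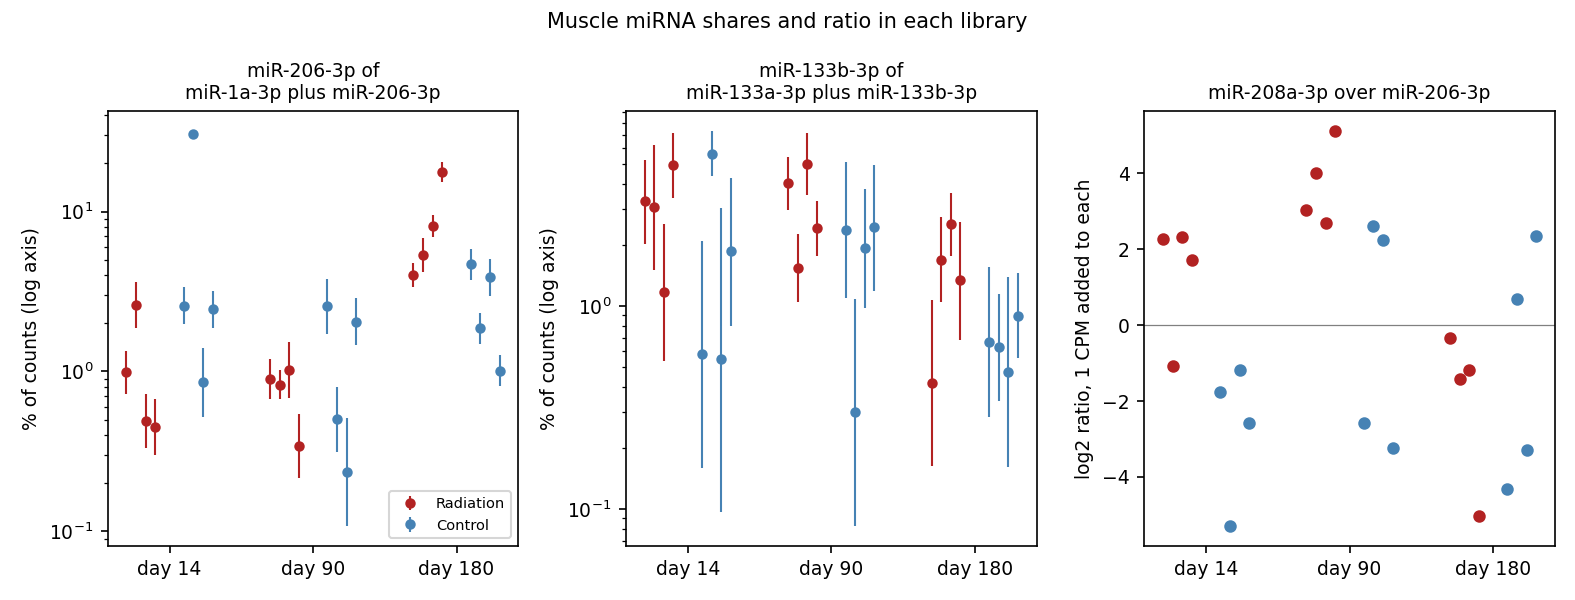
Share of miR-206-3p in miR-1a-3p plus miR-206-3p and of miR-133b-3p in miR-133a-3p plus miR-133b-3p (percent of counts, log axis, with Wilson 95% intervals), and log2 ratio of miR-208a-3p to miR-206-3p, in each library by day, irradiated left of controls. The ratio does not overlap between groups at days 14 and 90 and does at day 180. This is a description, since miR-208a-3p had few counts in several control libraries. Control library 2 of day 14 lies at 30.7% in the first panel.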

How the data were processed

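Small RNA of 18 to 30 nt was cut from a gel, ligated to adaptors and amplified, per the labels' protocols. The authors deposited, for each day, whole-number read counts of each mature miRNA in each library, and RPM values, which divide the deposited counts by a total 3.72 to 4.65 times their sum in the table. The sources used here do not define that total, and RPM totals served as an alternative scaling only. Per the submitters' processing notes, Bowtie2 and GRCm38.p6 were used in a role not stated. They also give neither the handling of reads that match several miRNAs nor any molecular identifiers.

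Each day was tested on the counts with edgeR 4.0.16 (R 4.3.3): filterByExpr, TMM, the quasi-likelihood F-test (legacy fit) and Benjamini-Hochberg adjustment over all miRNAs tested, threshold 0.05. The SE is derived from the fold change and F and is approximate. Differences between days used 1 fit on the miRNAs shared by the tables. Exact and permutation tests were two-sided (scipy 1.17.1), with 100000 permutations within groups for correlations over 24 libraries. Of 20 planned relations 14 were computed, since miR-133a-5p had 1 count. DESeq2 1.42.0, limma 3.58.1, other scalings and filters, the replicate block and left-out libraries were alternatives. The fits were tested on simulated data. They recovered 57.7%, 64.8% and 24.5% of 2-fold changes at days 14, 90 and 180, and 20.2% for day 180 minus 90. Of 4-fold changes they recovered 94.9%, 96.8%, 85.9% and 66%. A miRNA that was not called may therefore still differ by 2-fold.

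Same-numbered irradiated and control libraries deviated together at day 14 (correlations 0.403, 0.162, 0.463 and 0.412 for numbers 1 to 4). Differently numbered ones lay at -0.44 to 0.29, and irradiated library 2 was nearer to control library 4 (0.29) than to control library 2. The numbers were taken as pairing at day 14, less surely for number 2. On the other days same-numbered libraries did not deviate together at every number. The main fits, exact tests and permutations did not use this pairing, so their p-values treat the libraries of day 14 as independent. The replicate block served as an alternative fit. The members and lists were chosen with earlier results of these data known. The text names the 5 members, the 13 other striated muscle miRNAs, marker lists, and the 3 miRNAs nearest in pattern to each member with a median of at least 10 counts. Lists of skeletal muscle, smooth muscle, erythroid and ciliated cells were also summed. Skeletal muscle, which holds miR-206-3p and miR-133b-3p, gave 14.3 to 31.5 CPM in irradiated and 4.20 to 10.3 CPM in control libraries at day 90. This lack of overlap is a description, since the filter had chosen miR-133b-3p for high irradiated libraries. The skeletal muscle sums overlapped at day 14 (10.0 to 18.1 CPM against 5.46 to 656 CPM) and at day 180 (22.1 to 52.4 CPM against 15.4 to 29.7 CPM). Over all days, smooth muscle gave 30400 to 43416 CPM and 31513 to 41116 CPM, erythroid cells 19431 to 37326 CPM and 26403 to 36102 CPM, and ciliated cells 6506 to 17463 CPM and 8888 to 16038 CPM.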

Additional observations from a re-analysis of the deposited data

Results flagged for a closer look

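A library was marked when its gap to the nearest library of its group, divided by the group's range, was above Dixon's 95% critical value for 4 samples. Of 24 groups tested, 4 had such a library, all at day 14. Chance gives about 1 in 20 for independent groups of normally distributed values. The groups tested here repeat the same libraries for different miRNAs, so that rate is a rough guide only. Control library 2 was the high one for miR-1a-3p (1444 CPM, the others 595 to 637 CPM), for miR-133b-3p (16.3 CPM, the others 0.341 to 1.54 CPM) and for miR-206-3p (639.8 CPM, the others 5.12 to 16.1 CPM). Irradiated library 2 was the low one for miR-133a-3p (71.94 CPM, the others 155 to 164 CPM).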

How the results depend on the processing

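The count of members called at day 14 was 0, and 1 with no filter on low counts (miR-206-3p, edgeR adjusted p = 0.0487), where 7 of all 1657 miRNAs were called. At day 90 it was 1. It became 3 with no filter, where 18 of all 1707 miRNAs were called, and 2 with DESeq2, where 18 of 558 were. With a mean of at least 10 CPM it was 0, but only 2 members were tested there, and miR-133b-3p was not. The count was 0 with all 24 libraries in one fit, 0 with the miR-133 counts summed, and 0 to 1 with a library left out. At day 180 it stayed at 0. For the difference of day 90 minus 14 and of day 180 minus 14 it was 0, and 1 with DESeq2, and for the second 0 to 1 with a library left out. The 1 came without irradiated library 2 of day 180, where 18 of all 645 miRNAs were called. The adjusted p of miR-133b-3p at day 90 ranged from 7.1e-06 to 0.252 over its alternatives. The cause was not tested.

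With the replicate block, members called at day 90 numbered 0, and the difference of miR-133b-3p for day 180 minus 14 was -0.29. At day 14, where the numbers were taken as pairing, the block changed no call, and miR-206-3p lay at -1.46 on the log2 scale (edgeR, adjusted p = 0.855). No other call of a member changed with the block.

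Signs also turned for values that never passed. miR-133a-3p at day 14 was -0.002 with the RPM totals and -0.15 to 0.73 with a library left out. With a library left out, it was -0.53 to 0.027 at day 180 and -0.91 to 0.044 for day 180 minus 14, miR-133b-3p was -1.57 to 1.41 for day 180 minus 14, and miR-206-3p was -0.54 to 0.38 for day 180 minus 90. Depth limits miR-133b-3p, with 1 to 55 counts per library.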

Other observations

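These shares were chosen after the values were seen. miR-1b-5p, from the Mir1b hairpin that overlaps Mir1a-2 by 72 bases on the opposite strand, made up 4.48% to 10.8% of the summed counts of miR-1b-5p and miR-1a-3p in the 24 libraries. Without stated use of strand in the counting, reads of these overlapping genes may not be told apart. miR-133a-3p made up 11.0% ± 2.92 of the summed counts of miR-133a-3p and miR-1a-3p in irradiated and 12.9% ± 3.00 in control libraries at day 14 (SD, 4 libraries each). The share was 17.9% ± 4.01 against 16.8% ± 3.56 at day 90, and 39.2% ± 10.3 against 28.4% ± 7.27 at day 180. The groups overlapped on each day, and the days come from separate tables.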
